A study of Rattus norvegicus with 30 samples.

Results

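The secreted Wnt modulators examined here are Sfrp1, Sfrp2, Sfrp4 and Frzb, members of the secreted frizzled-related protein family, and Dkk3, the divergent member of the Dickkopf family. They were taken as every probe set that the annotation of the array assigns to these 5 genes, which gave 13 of the 31099 probe sets in the table, for 5 of the 14217 genes that it names. Sfrp1 has 3 probe sets, Sfrp2, Sfrp4 and Frzb have 2 each, and Dkk3 has 4. Of the 13, 12 passed the filter on low values and were tested. The Dkk3 probe set 1377468_at did not reach the filter intensity of 23 on any array and has no test.

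Expression was measured on 30 arrays of heart tissue from male Crl:WI(Han) rats. Each animal was dosed once, with vehicle alone or with isoproterenol hydrochloride, an agonist of beta-adrenergic receptors that injures heart muscle at high doses. Vehicle groups had 3 arrays at each of 1, 3, 24 and 72 h, and the matching isoproterenol groups held 5, 4, 4 and 5. The labels write the dose as 0.5 with the unit mg/kg/ml, which leaves the amount per body weight unclear. The design text of the series names another last time than the labels, whose 72 h is used. The labels name neither the age of the animals nor the region of the heart. The 9 measured cardiomyocyte markers were at or above the filter intensity on all 30 arrays.

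Secreted frizzled-related proteins carry a cysteine-rich domain like the one with which Frizzled receptors bind Wnt proteins. Outside the cell they can bind Wnts and dampen signalling, and in some settings they spread or enhance it. Sfrp2 is also known to act on procollagen C-proteinase, the Bmp1 enzyme that trims fibrillar procollagens, and has been studied in the healing of injured heart muscle. Classical Dickkopf proteins block the Wnt coreceptors Lrp5 and Lrp6, whereas Dkk3 is not a classical blocker of these coreceptors.

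Promoter sequence was at hand for 2 of the 5 genes, Sfrp2 and Frzb, from RefSeq on the rat build GRCr8. The stretches directly upstream of the annotated gene are shown because Sfrp2 rose at 72 h and Frzb did not pass the test at any time. They are written 5′ to 3′ on the strand of the gene, with capitals marking CpG dinucleotides. The Sfrp2 stretch lies at chr2:171387286-171387535 on the plus strand, and the Frzb stretch lies at chr3:85772169-85772346 on the minus strand.
Sfrp2: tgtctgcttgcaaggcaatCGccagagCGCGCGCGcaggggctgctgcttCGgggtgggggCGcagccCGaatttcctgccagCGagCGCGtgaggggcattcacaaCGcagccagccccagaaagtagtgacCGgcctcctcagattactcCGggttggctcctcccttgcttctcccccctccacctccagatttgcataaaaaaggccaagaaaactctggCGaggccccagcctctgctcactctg
Frzb: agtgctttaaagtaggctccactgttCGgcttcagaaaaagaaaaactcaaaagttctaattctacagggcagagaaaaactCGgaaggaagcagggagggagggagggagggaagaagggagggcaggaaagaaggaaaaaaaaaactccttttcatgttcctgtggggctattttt
The Sfrp2 stretch of 250 bases holds 15 CpG dinucleotides, and the Frzb stretch of 178 bases holds 2. Over the full window of 300 bases around the start, GC content was 65.0% for Sfrp2 and 45.3% for Frzb, against a median of 51.7% over 33469 promoter windows. The AP-1 motif TGANTCA, which 7.33% of all windows hold on either strand, was in neither window. The TCF/LEF motifs CTTTGAT and CTTTGTT, held by 3.63% and 5.98% of windows, were in neither window either.

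Levels below are log2(intensity + 16) after quantile normalization, and effects are isoproterenol minus vehicle on that scale, ± standard error. An effect was called at a limma p under 0.05 after Benjamini-Hochberg adjustment over all 24292 probe sets tested. The scale understates the change of dim probe sets. In bulk heart tissue, fewer cells of a type and less RNA per cell cannot be told apart. The labels call every array a biological replicate, without stating that each is a separate animal. If some arrays do not come from separate animals, the p-values reflect the spread between samples alone, which may be technical. Array medians of the deposited intensity lay between 21.2 and 70.4. Vehicle arrays carry the numbers 4 to 21 and isoproterenol arrays the numbers 33 to 62, so treatment cannot be told apart from the order of the arrays.

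Sfrp2 and Sfrp4 rose at 72 h, Dkk3 fell at 24 h, and Sfrp1 rose slightly at 3 h. At 72 h, 3 of the 12 probe sets were higher, against 9.37% of all probe sets, and none was lower, against 8.56%. At 24 h, 1 was lower, against 5.7%, and none was higher, against 7.33%. At 3 h, 1 was higher, against 6.11%, and none was lower, against 5.28%. At 1 h the limma test called none, with 1.83% of all probe sets higher and 0.815% lower, and 1 of the 12 had an unadjusted p below 0.05. The F test of an effect at any time called 5 of the 12, against 32% of all probe sets. The median effect over the 12 probe sets was 0.12, 0.04, -0.47 and 0.43 in order of time, and over all probe sets it was -0.03, -0.05, -0.02 and -0.04. The plot of effects by time gives every tested probe set with its interval.

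**Figure D1:**
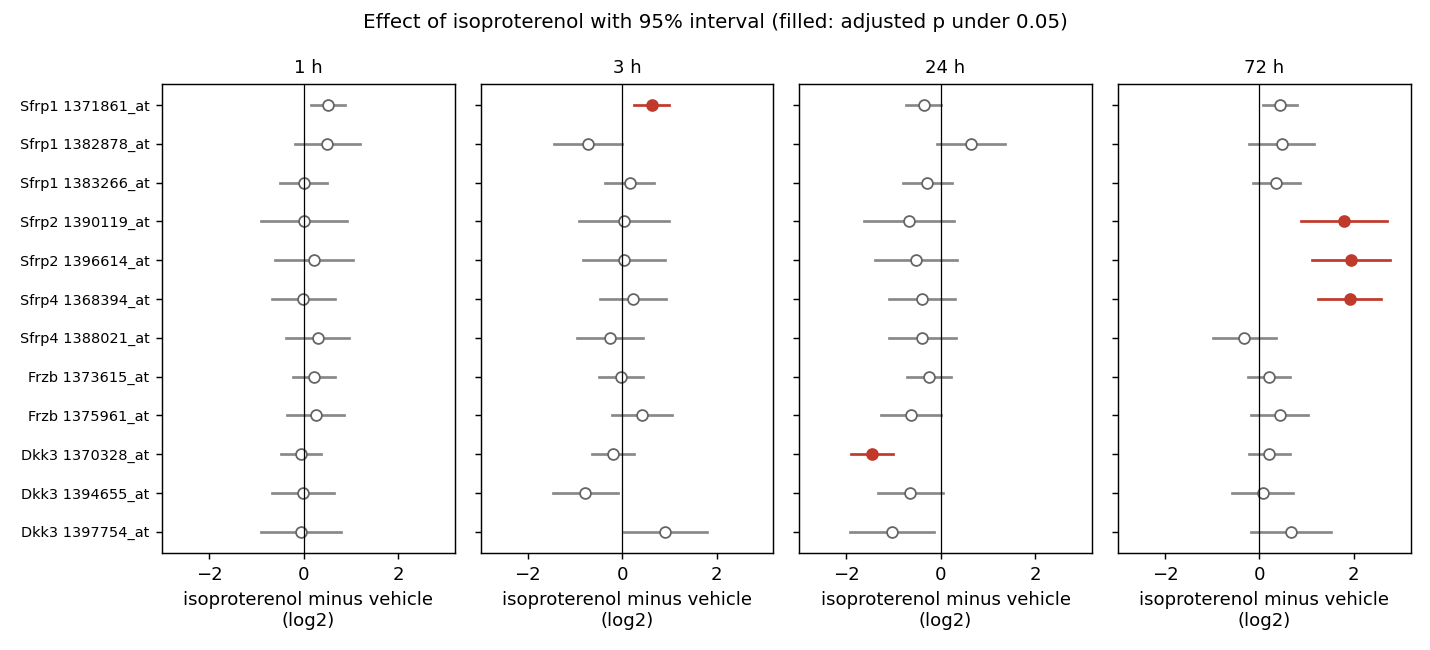
Effect of isoproterenol on the 12 tested probe sets at 1, 3, 24 and 72 h, as the difference from vehicle on the log2(intensity + 16) scale with its 95% interval. Filled red points passed an adjusted p of 0.05: Sfrp1 at 3 h (0.62), Dkk3 at 24 h (-1.46), and both Sfrp2 probe sets and 1 Sfrp4 probe set at 72 h (1.80, 1.94 and 1.91).

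Sfrp2 encodes an extracellular Wnt modulator made by fibroblasts. On the probe set 1390119_at, the vehicle arrays of 72 h read 5.22, 7.71 and 5.93, and the isoproterenol arrays read 7.18, 8.57, 8.35, 7.75 and 8.57. On 4 of the 5 isoproterenol arrays the level was above every vehicle array, and replicate 1 lay below vehicle replicate 2. The effect was 1.80 ± 0.45, or 3.48-fold (limma adjusted p = 0.00495). The other Sfrp2 probe set, 1396614_at, read 4.20, 6.26 and 4.32 on the vehicle arrays and 5.49, 7.22, 7.41, 6.50 and 7.73 on the isoproterenol arrays. The pattern was alike on both: vehicle replicate 2 was the highest vehicle array and isoproterenol replicate 1 the lowest isoproterenol array. The effect there was 1.94 ± 0.41, or 3.85-fold (limma adjusted p = 0.00110). Vehicle levels of 1396614_at at 1 and 3 h lay between 4.22 and 4.45, near the lowest value the scale allows, so the fold is understated.

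At the earlier times Sfrp2 did not pass. At 1 h the effects of the 2 probe sets were 0.02 ± 0.45 and 0.22 ± 0.41, and at 3 h they were 0.04 ± 0.47 and 0.03 ± 0.42. On the 3 h isoproterenol arrays 1390119_at spread from 4.31 to 6.97, wider than the vehicle range of 5.09 to 5.41. At 24 h both were lower by an amount that did not pass, -0.68 ± 0.47 and -0.53 ± 0.42 (limma adjusted p = 0.394 and 0.482). The effect at 72 h exceeded that at 24 h by 2.48 ± 0.65 on 1390119_at and by 2.47 ± 0.59 on 1396614_at (limma adjusted p = 0.0369 and 0.0201).

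Sfrp4 encodes a second secreted frizzled-related protein, known from mineralising tissue and from fibroblasts. On 1368394_at the vehicle arrays of 72 h read 4.63, 5.86 and 4.31, and the isoproterenol arrays read 5.98, 7.09, 7.38, 7.01 and 6.78. All 5 isoproterenol arrays were above all 3 vehicle arrays, a separation upward that 8.62% of all probe sets showed at 72 h. The effect was 1.91 ± 0.33, or 3.77-fold (limma adjusted p = 0.000137). At 1, 3 and 24 h it was -0.01 ± 0.33, 0.23 ± 0.34 and -0.40 ± 0.34, none of which passed. The 72 h effect exceeded the 24 h effect by 2.32 ± 0.47 (limma adjusted p = 0.00804). The other Sfrp4 probe set, 1388021_at, reached the filter intensity on 3 arrays only and did not show the rise: its effect at 72 h was -0.32 ± 0.33, with an interval from -0.99 to 0.35 (limma adjusted p = 0.570).

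**Figure D2:**
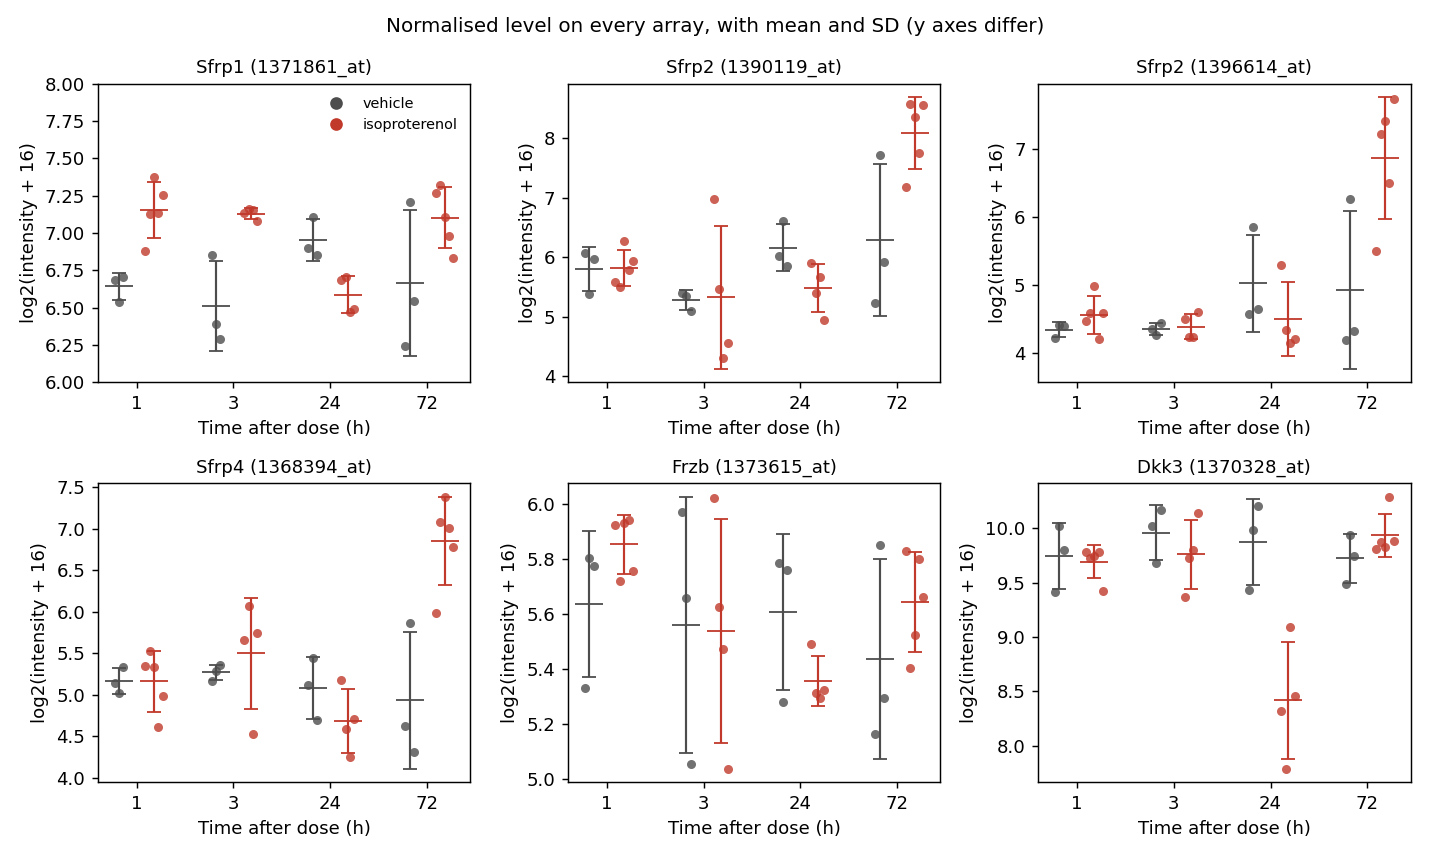
Level of 6 probe sets on every array as log2(intensity + 16), by hours after the dose, with vehicle in grey and isoproterenol in red, and bars for mean and SD. At 72 h all 5 isoproterenol arrays of Sfrp4 lie above the vehicle arrays, and at 24 h all 4 isoproterenol arrays of Dkk3, from 7.79 to 9.09, lie below them.

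Both genes varied together between single arrays. Over the 30 arrays, Sfrp4 correlated with the Sfrp2 probe sets at r = 0.78 and 0.84, and after the group means were taken off at r = 0.58 and 0.72. The 2 Sfrp2 probe sets correlated with each other at r = 0.90, or 0.67 within groups. These are descriptions over arrays that share groups and normalization. The corresponding values for Sfrp1 against Sfrp2 1390119_at were 0.42 and 0.49, and for Dkk3 against it 0.22 and -0.14. The 2 arrays of 72 h described next were the highest and the lowest of their groups for both Sfrp2 and Sfrp4. They enter the values of r within groups, and r without them is not given here.

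At 72 h 2 arrays stood apart. Isoproterenol replicate 1 had a mean log2 level of 7.43 over the 9 measured activated fibroblast markers, against 9.67 to 10.33 on the other 4, and 7.11 over the 12 macrophage markers, against 8.41 to 8.97. Its mean over 4 atrial markers was 9.64, against 7.17 to 7.51. Vehicle replicate 2, the highest vehicle array for Sfrp1, Sfrp2 and Sfrp4, read 10.36 over 12 resident fibroblast markers, against 9.77 and 9.86, and 8.45 over the atrial markers, against 6.79 and 6.41. Without both arrays, the effects at 72 h were 2.74 and 2.96 for the Sfrp2 probe sets and 2.60 for Sfrp4 (limma adjusted p = 2.75e-05, 1.85e-07 and 5.81e-07). Sfrp1 then passed as well, at 0.66 (limma adjusted p = 0.00748), so that 4 of 12 probe sets were higher. For Sfrp2 and Sfrp4 the 2 arrays were the highest vehicle and the lowest isoproterenol array of 72 h. Leaving them out was bound to enlarge those effects, which therefore add no support. For Sfrp1 vehicle replicate 2 was also the highest vehicle array, at 7.21 against 6.25 and 6.55, so leaving it out was bound to raise that effect. The call of Sfrp1 and the count of 4 therefore add no support either. Without vehicle replicate 1 instead, Sfrp2 1390119_at fell to 1.27 and lost its call (limma adjusted p = 0.0903), whereas 1396614_at and Sfrp4 kept theirs at 1.58 and 1.76.

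The rises of Sfrp2 and Sfrp4 stood beside a rise of fibroblast genes. Of the 12 resident fibroblast markers, all measured, 9 rose and none fell at 72 h, with a median effect of 1.13, against a gene background of 13.2% higher and 8.82% lower and a median of 0.01 over all 12451 genes. The largest rises among them were Thy1, a surface glycoprotein, at 3.04, and the type I collagen chains Col1a2 and Col1a1 at 2.19 and 1.82. Of 9 measured activated fibroblast markers 8 rose, with a median of 2.99, led by the matricellular gene Postn at 5.23, Cthrc1 at 4.50 and Tnc at 3.80. Of 12 macrophage markers 11 rose, with a median of 1.87. The summed intensity of the resident fibroblast markers ran from 33683 to 60305 on the isoproterenol arrays of 72 h and from 21195 to 30629 on the vehicle arrays. At 24 h the sums of the resident markers overlapped, from 18324 to 26857 and from 21782 to 28697. Of the 9 activated fibroblast markers, 4 already rose at 24 h and none fell, with a median of 1.33, against 10% of genes higher. Their sums were apart, from 3522 to 7009 with isoproterenol and from 980 to 1494 with vehicle. Among the 4, Tnc and Thbs4 lost their calls in 4 and 5 of 7 fits without 1 array. The part of these markers in the rise of Sfrp2 and Sfrp4 was not tested.

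Over the 30 arrays, the mean resident fibroblast level correlated with Sfrp2 at r = 0.85 and with Sfrp4 at r = 0.81, or 0.60 and 0.49 within groups. With Dkk3 it correlated at 0.23, with Sfrp1 at 0.20 and with Frzb at 0.06. The array that was lowest for Sfrp4 among the 72 h isoproterenol arrays, replicate 1, was also lowest for these markers, at 10.52 against 11.30 to 11.49. Sfrp2 on 1390119_at shared that order for its lowest array, at 7.18.

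**Figure D3:**
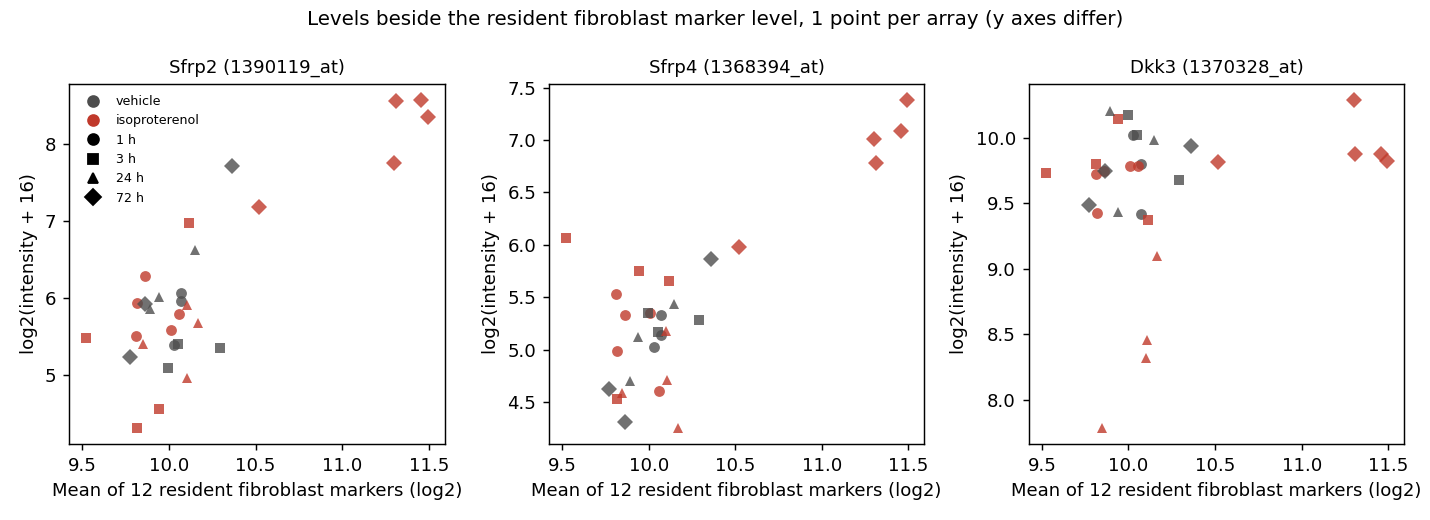
Level of Sfrp2, Sfrp4 and Dkk3 on each of the 30 arrays against the mean log2 level of 12 resident fibroblast markers, with vehicle in grey, isoproterenol in red and 1 symbol for each time. The 72 h isoproterenol arrays lie highest on the marker axis, and, except replicate 1, on the gene axis for Sfrp2 and Sfrp4. Replicate 1, at a marker level of 10.52, reads 7.18 for Sfrp2, below vehicle replicate 2 of 72 h at 7.71. For Sfrp4 it reads 5.98, below a 3 h isoproterenol array at 6.07. For Dkk3 the 4 isoproterenol arrays of 24 h lie lowest, from 7.79 to 9.09, at marker levels from 9.85 to 10.17.

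The genes most like Sfrp2 over the 30 arrays were Col8a2, a short-chain collagen, at r = 0.90, P2ry12 at 0.88, Matn2, an adaptor protein of the matrix, at 0.87, Car3 at 0.86 and Ltbp3, a binding protein of latent TGF-beta, at 0.85. At 72 h Car3 rose by 3.34, Col8a2 by 2.83, Matn2 by 1.98, P2ry12 by 1.85 and Ltbp3 by 1.69. For Sfrp4 they were Igfbp6 at r = 0.89, the gelatinase Mmp2 at 0.87, Ltbp3 at 0.87, Fndc1 at 0.86 and the phospholipid transfer protein Pltp at 0.86. Ltbp3 stood in both sets. Within groups, r lay between 0.56 and 0.84 for these genes. Since they were picked by r over the same arrays, a shared rise at 72 h is built into the choice.

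Sfrp1 encodes a member of the family that binds Wnts outside the cell. On 1371861_at, which reached the filter intensity on all 30 arrays, the vehicle arrays of 3 h read 6.85, 6.39 and 6.29, and the isoproterenol arrays read 7.13, 7.16, 7.15 and 7.08. All 4 isoproterenol arrays were above the vehicle arrays and differed little among themselves (SD 0.037). A full separation upward at 3 h was seen for 8.50% of all probe sets. The effect was 0.62 ± 0.18, or 1.54-fold (limma adjusted p = 0.0238). The call was lost without vehicle replicate 2 (0.56, limma adjusted p = 0.101) or vehicle replicate 3 (0.51, limma adjusted p = 0.0994), and with arrays centred on their medians (0.54, limma adjusted p = 0.0958), and it held in 14 of the 20 other settings run. At 1 h all 5 isoproterenol arrays, from 6.88 to 7.37, also exceeded the vehicle arrays, from 6.54 to 6.71, with an effect of 0.51 ± 0.18 that did not pass (limma adjusted p = 0.147). At 1 h 6.48% of all probe sets were apart upward.

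At 24 h Sfrp1 lay on the other side. The isoproterenol arrays read 6.69, 6.71, 6.47 and 6.49, below vehicle arrays of 6.90, 7.11 and 6.85, with an effect of -0.36 ± 0.18 that did not pass (limma adjusted p = 0.211) and that turned to 0.28 without normalization. Such a full separation downward at 24 h was seen for 11.2% of all probe sets. The difference between the 24 h and 3 h effects, -0.98 ± 0.26, passed (limma adjusted p = 0.0190). It lost its call without vehicle replicate 2 of 3 h (-0.92, limma adjusted p = 0.0535) and without vehicle replicate 2 of 24 h (-0.91, limma adjusted p = 0.0577), and without normalization it was -0.05. At 72 h the effect was 0.44 ± 0.18 (limma adjusted p = 0.0832), with 2 of 5 isoproterenol arrays above all vehicle arrays. Of 8 fits lacking 1 array, 7 did not pass. The smallest effect, 0.23, came with vehicle replicate 1 removed (limma adjusted p = 0.506). Removing vehicle replicate 2, the highest vehicle array, was bound to raise the effect, which then passed at 0.71 (limma adjusted p = 0.00475). That call therefore adds no support.

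The other Sfrp1 probe sets were dim and did not share this course. 1382878_at reached the filter intensity on 9 arrays, and 1383266_at on 7. At 3 h their effects were -0.72 ± 0.35 and 0.15 ± 0.26, neither of which passed. At 24 h they were 0.64 ± 0.35 and -0.28 ± 0.26, which did not pass either (limma adjusted p = 0.263 and 0.551). On 1382878_at all 4 isoproterenol arrays of 24 h were above the vehicle arrays, a separation upward that 10.6% of all probe sets showed. The genes most like Sfrp1 1371861_at were Cyp1b1, a cytochrome P450, at r = 0.74, Adgrd1 at 0.73, Snx18 and Itgb3, an integrin subunit, at 0.72, and Crabp2, a retinoic acid binding protein, at 0.71. Within groups these values lay between 0.24 and 0.53.

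Frzb, also called Sfrp3, encodes a family member first studied in cartilage. Neither of its probe sets passed at any time. 1373615_at stayed between 5.04 and 6.02 on all 30 arrays, with effects of 0.22, -0.02, -0.25 and 0.21 in order of time. The 95% interval of its 72 h effect ran from -0.23 to 0.65, and that of 1375961_at, with an effect of 0.43 ± 0.30, from -0.17 to 1.04. On 1375961_at all 4 isoproterenol arrays of 24 h, from 4.71 to 5.46, lay below the vehicle arrays, from 5.61 to 6.02. The effect of -0.63 ± 0.31 did not pass (limma adjusted p = 0.199), and 11.2% of all probe sets were apart downward at 24 h in the same way. The 2 Frzb probe sets correlated at r = 0.67 over the 30 arrays. The genes most like Frzb 1373615_at were Aqp12a at r = 0.66, Lrfn3 at 0.64, Myo5c at 0.62, and Cdkl2 and Tmem221 at 0.58 to 0.59.

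Dkk3 encodes a secreted glycoprotein of the Dickkopf family. On 1370328_at, at or above the filter intensity on all 30 arrays, the vehicle arrays of 24 h read 9.43, 9.98 and 10.20. The isoproterenol arrays read 8.32, 7.79, 9.09 and 8.46. All 4 were below all 3 vehicle arrays, as for 11.2% of all probe sets at 24 h, and replicate 3 was the least reduced. The effect was -1.46 ± 0.22, a level 2.75-fold lower (limma adjusted p = 6.19e-05). The call held without each of the 7 arrays of that time in turn, and was lost only without normalization among the 20 other settings run (-0.84, limma adjusted p = 0.117).

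On this probe set Dkk3 did not pass at the other times. Effects at 1, 3 and 72 h were -0.05 ± 0.21, -0.20 ± 0.22 and 0.21 ± 0.21, none of which passed. All vehicle arrays of the 4 times and the isoproterenol arrays of 1, 3 and 72 h lay between 9.37 and 10.29. The 24 h effect differed from that at 3 h by -1.26 ± 0.31 and the 72 h effect from that at 24 h by 1.67 ± 0.30 (limma adjusted p = 0.0124 and 0.00253). The first of these lost its call without vehicle replicate 3 of 24 h (-1.10, limma adjusted p = 0.0508).

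Array measures moved with Dkk3 at 24 h. The isoproterenol arrays of 24 h had median deposited intensities of 57.7, 70.1, 35.2 and 70.4, and the vehicle arrays 49.3, 29.9 and 29.7. The log2 excess of the 3′ over the 5′ beta-actin control was 0.86, 0.55, 1.40 and 0.68 on the isoproterenol arrays and 1.37, 1.69 and 1.86 on the vehicle arrays. Isoproterenol replicate 3, the highest of its group for Dkk3, had the lowest median and the highest excess, and the lowest levels of macrophage markers (7.59, against 8.51 to 9.13) and activated fibroblast markers (7.47, against 8.06 to 8.22). Of the resident fibroblast markers, 3 fell at 24 h and none rose: Gsn by 0.71, Dcn by 0.68 and Dpt by 0.59, against 7.16% of genes lower and 10% higher. The list as a whole did not shift down, with a median effect of 0.04 over its 12 genes, against -0.01 over all genes. The calls of Gsn and Dpt were each lost in 5 of the 7 fits that left out 1 array, at adjusted p up to 0.154 and 0.254. Over the 4 isoproterenol arrays the mean resident fibroblast level ran in the same order as Dkk3. Replicate 2, lowest for Dkk3 at 7.79, had a mean of 9.85, below the vehicle arrays of 24 h (9.94, 10.15 and 9.89), and replicate 3 had the highest mean, 10.17. At 72 h, isoproterenol replicates 3 and 5 had medians of 50.5 and 55.6 and excesses of 0.87 and 0.90. No isoproterenol array of 72 h read below 9.81 for Dkk3. The part of these measures in the fall of Dkk3 was not tested.

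The other Dkk3 probe sets pointed down at 24 h without passing. 1397754_at had an effect of -1.03 ± 0.43 (limma adjusted p = 0.119), with 3 of 4 isoproterenol arrays below the vehicle arrays. Its 24 h effect differed from its 3 h effect by -1.95 ± 0.61 (limma adjusted p = 0.0493), a call that was lost in 10 of the 14 fits without 1 array, at adjusted p up to 0.159 without vehicle replicate 3 of 24 h. At 3 h its effect of 0.92 ± 0.43 did not pass (limma adjusted p = 0.183), but was 1.43 and passed without vehicle replicate 1 (limma adjusted p = 0.0487). 1394655_at had an effect of -0.65 ± 0.34 (limma adjusted p = 0.227) at 24 h and was at or above the filter intensity on 9 arrays. The genes most like Dkk3 1370328_at were the serine protease Htra3 at r = 0.88, Adamtsl4 at 0.87, the microtubule-associated gene Map4 at 0.84, Slc41a3 at 0.82 and the receptor phosphatase Ptprs at 0.81. At 24 h they changed by -2.00, -1.35, -0.65, -1.93 and -0.71. Being picked by r over the same arrays, they share the fall by choice and are no separate support for it.

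In all, the effect changed between 24 and 72 h on 4 of the 12 probe sets, each upward, against 2.12% of all probe sets, and between 3 and 24 h on 3, each downward, against 6.79%. Adjacent effects at 1 and 3 h differed on none in the limma test, against 0.58%, with 1 of 12 at an unadjusted p below 0.05. The F test among the 4 vehicle groups called none, against 0.0988%, with 1 of 12 at an unadjusted p below 0.05. Successive differences share the arrays of the time between them. For Sfrp2 1390119_at the 72 h difference from 24 h kept its call in 15 of 29 other settings. It lost the call in 10 of the 15 fits that left out 1 array, furthest without vehicle replicate 1 of 72 h (1.95, limma adjusted p = 0.183), vehicle replicate 3 of 72 h (2.31, limma adjusted p = 0.129) and vehicle replicate 2 of 24 h (2.26, limma adjusted p = 0.120), an array with a mean atrial marker level of 9.78 against 6.80 and 6.37. On 1396614_at it was lost without vehicle replicate 1 of 72 h (2.11, limma adjusted p = 0.105), vehicle replicate 3 of 72 h (2.18, limma adjusted p = 0.0963) and vehicle replicate 2 of 24 h (2.07, limma adjusted p = 0.0978). Sfrp4 kept it in all 29.

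Among other genes of the pathway, 65 of 100 listed were measured. At 72 h 11 rose and 3 fell, with a median effect of -0.01, where 13.2% of all genes were higher and 8.82% lower. At 24 h 2 rose and 5 fell, where 10% were higher and 7.16% lower. None of the 5 measured other secreted antagonists, Sfrp5, Wif1, Sost, Sostdc1 and Igfbp4, passed in the limma test at 24 or 72 h, and none had an unadjusted p below 0.05. Of the 4 measured R-spondin, Norrin and LGR genes, which amplify Wnt signals or receive such amplifiers, none passed at any time, with 1 at an unadjusted p below 0.05 at 3 h and 1 at 24 h. Of 9 genes for Wnt ligands and their secretion, Wls, the carrier that brings Wnts to the cell surface, rose at 72 h by 0.78 ± 0.17, and Wnt9a fell at 24 h by 0.77 ± 0.24. The call of Wnt9a was lost in 6 of the 7 fits without 1 array, at adjusted p up to 0.117.

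Of 11 measured Wnt receptors, 4 fell and none rose at 24 h, against 7.16% and 10% of all genes, and 2 rose and 1 fell at 72 h, against 13.2% and 8.82%. At 24 h the Frizzled receptors Fzd6, Fzd4, Fzd8 and Fzd1 fell by 0.86, 0.69, 0.69 and 0.68. Without normalization none of these 4 passed, with effects from -0.26 to -0.04. Leaving out 1 array cost Fzd8 its call in 5 of 7 fits, Fzd1 in 4 and Fzd6 in 1, at adjusted p up to 0.161, 0.213 and 0.0714. At 72 h the receptor-like kinase Ptk7 rose by 2.13 ± 0.45 and Fzd2 by 1.25 ± 0.28, each passing in all 22 other settings. The coreceptor Lrp6 fell by 0.75 ± 0.25 and lost its call in 5 of 8 fits without 1 array, at adjusted p up to 0.133.

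Of 19 measured intracellular genes, 3 rose and 1 fell at 72 h, where 13.2% of all genes were higher and 8.82% lower. None passed at 24 h in the limma test, with 1 at an unadjusted p below 0.05. The largest at 72 h were Gsk3a, a kinase of the beta-catenin destruction complex, at -0.71, the corepressor Tle3 at 0.66 and the transcription factor Lef1 at 0.65. Without 1 array in turn, their calls were lost in 1, 2 and 5 of 8 fits, at adjusted p up to 0.139, 0.0959 and 0.220. Of 12 measured genes known as beta-catenin targets, 5 rose and none fell at 72 h, against the same shares, with a median of 0.40. They were led by the matricellular genes Ccn5 and Ccn4 at 2.76 ± 0.46 and 2.32 ± 0.37 and by Birc5, an inhibitor of apoptosis, at 1.10 ± 0.29. At 24 h 2 of the 12 rose, Myc and Cd44, by 2.13 and 1.63, where 10% of all genes were higher. Among membrane inhibitors, Tmem88 fell at 72 h by 0.56 ± 0.15, did not pass without vehicle replicate 1 or 3, at adjusted p up to 0.115, and changed by 0.05 without normalization.

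Sfrp2 is known to act on procollagen processing, and the genes of that step moved at 72 h. All 5 measured genes of the list rose, with a median of 1.82, where 13.2% of all genes were higher. Of the 5, 3 are also in the resident fibroblast list. Pcolce, which enhances the C-proteinase, rose by 2.42 ± 0.35, and Bmp1, the C-proteinase itself, by 0.54 ± 0.17. Col1a2 and Col1a1 rose by 2.19 ± 0.31 and 1.82 ± 0.33. The call of Bmp1 was lost in 4 of 8 fits without 1 array, at adjusted p up to 0.118. At 24 h none of the 5 passed in the limma test, with a median of 0.69 and 2 at an unadjusted p below 0.05.

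**Figure D4:**
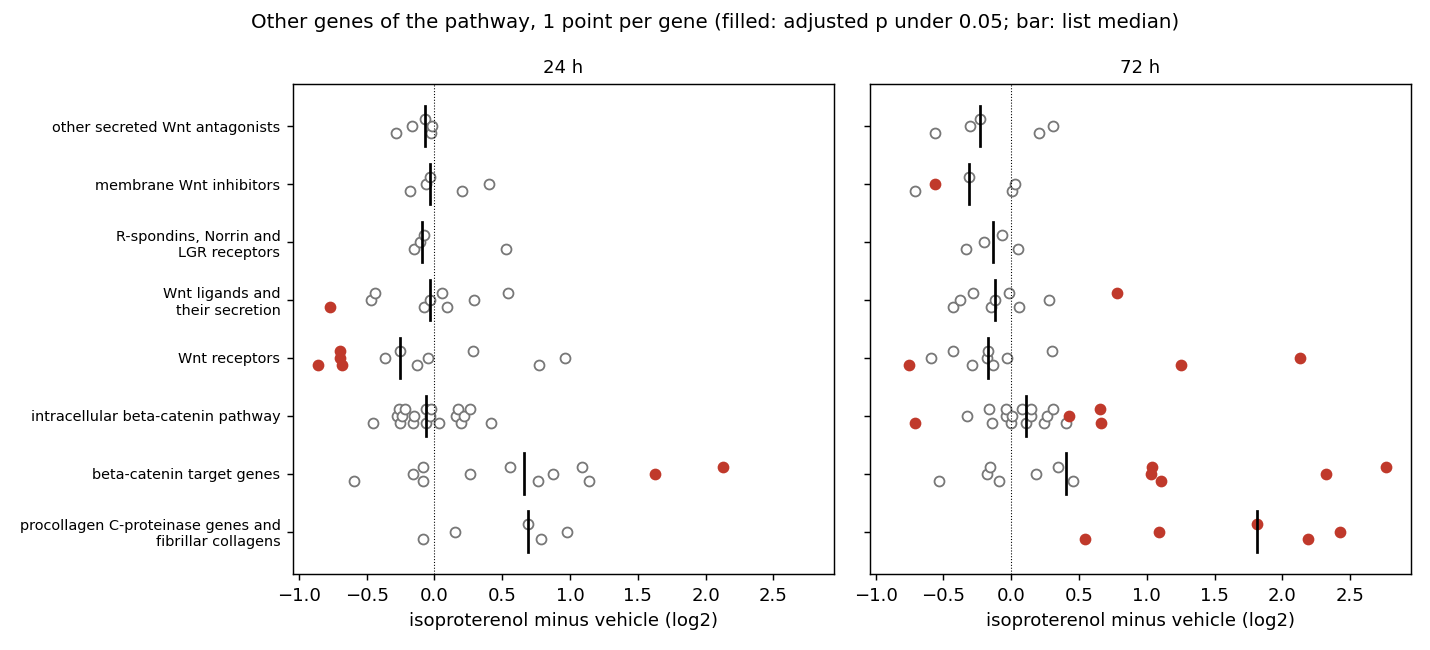
Effect of isoproterenol at 24 and 72 h on the log2 scale for the measured genes of 8 lists, 1 point per gene, filled where the adjusted p was under 0.05, with a bar for the list median. At 24 h 4 Wnt receptors are filled on the left, and at 72 h all 5 procollagen genes are filled on the right, with a median of 1.82.

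At the early times the pathway genes that passed were others. At 1 h 4 rose and 1 fell: the secreted antagonists Sostdc1 and Igfbp4 by 1.16 ± 0.25 and 0.76 ± 0.17 and the listed targets Myc and Fosl1 by 2.98 and 1.41, while the transcription factor Tcf7 fell by 1.23 ± 0.21. Gene backgrounds at 1 h were 2.37% higher and 1.04% lower. The calls of Sostdc1 and Igfbp4 were each lost without vehicle replicate 2, at adjusted p of 0.142 and 0.0519. At 3 h 4 rose and 7 fell, against 6.95% and 6.33% of genes, with Tcf7 lower by 1.22, Fzd2 by 1.17, Apcdd1, a membrane inhibitor, by 0.85, Porcn, the Wnt acylating enzyme, by 0.82, and Wif1, a secreted antagonist, by 0.65. Apcdd1, Porcn and Wif1 lost their calls in 5, 4 and 1 of 7 fits without 1 array, at adjusted p up to 0.155, 0.138 and 0.0818. Myc and Fosl1 were higher by 3.46 and 2.56.

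Some markers of other cells passed as well. Of all genes, 2.37% were higher and 1.04% lower at 1 h, and 6.95% and 6.33% at 3 h. The shares were 10% and 7.16% at 24 h, and 13.2% and 8.82% at 72 h. In lists this short, a single call says little about a cell type. Of 5 measured neutrophil markers, 2 rose at 1 h, 3 at 3 h, led by Il1r2 at 2.30, and 1 at 24 h. The 1 h calls, Il1r2 and S100a9, were lost in 1 and 3 of 8 fits without 1 array. The 24 h call, Il1r2, was lost in 3 of 7. Macrophage markers rose at 24 h, 10 of 12, with a median of 2.19. Of 4 atrial markers, 1 rose at 24 and 72 h, Nppa, a stress gene of heart muscle, by 2.75 and 2.90. Of 7 endothelial markers, Tie1, Emcn and Egfl7 fell at 3 h, and the call of Egfl7 was lost in 4 of 7 fits without 1 array, at adjusted p up to 0.162. At 24 h and at 72 h 1 endothelial marker fell. Of 7 mural cell markers, Pdgfrb, Rgs5 and Kcnj8 fell at 3 h, and Pdgfrb, Tagln and Cnn1 rose at 72 h. Kcnj8 lost its call in 3 of 7 such fits and Cnn1 in 3 of 8, at adjusted p up to 0.133 and 0.149. Of 9 cardiomyocyte markers Ryr2 fell at 24 h and Myl3 at 72 h, calls that were lost in 5 of 7 and 5 of 8 such fits, at adjusted p up to 0.167 and 0.196. Of 4 mesothelial markers Wt1 rose at 1 h and fell at 72 h, each call lost in 4 of 8 such fits, at adjusted p up to 0.141 and 0.0778. Of 4 skeletal muscle markers Myh1 fell at 3 h, lost in 3 of 7 such fits at adjusted p up to 0.164, and at 72 h, which held in all 8. None of 6 valve, tendon and cartilage markers, 2 adipocyte markers or 2 nerve markers passed at any time in the limma test, with 1 valve marker at an unadjusted p below 0.05 at 1 h. The part of these markers in the levels of the Wnt modulators was not tested.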

How the data were processed

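Expression was measured on 30 one-colour rat arrays, 12 vehicle and 18 isoproterenol, grouped by treatment and time from the sample labels. The authors deposited a table of linear intensity values for 31099 probe sets. No label or header used here states how probe signals were summarised. Genes were named through the annotation of the array platform.

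From the deposited intensities, log2(intensity + 16) was computed and quantile normalized with limma 3.58.1 in R 4.3.3. The 57 control probe sets were left out, and 24292 probe sets reaching the 40th percentile, an intensity of 23, on at least 3 arrays were tested. A single fit of 8 group means (22 residual degrees of freedom), with the prior variance following intensity, gave moderated tests, two-sided, with Benjamini-Hochberg adjustment over all probe sets of a contrast. For counts by gene, the brightest probe set stood for each of 12451 genes. The number of arrays limits the precision.

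Every probe set of the 5 genes is described. The 5 genes most alike are those with the highest Pearson r, and of each of 8 pathway and 13 cell type lists the 3 largest changes past the threshold are named at most. Some genes outside this rule are named because they complete a count, and were chosen after their values were seen. Members and lists were chosen with earlier results of these data known. Alternatives were other pseudocounts (1 and 64), normalizations, filters, variance models, array weights, fewer arrays in the fit, a replicate block, other probe sets and each array left out. A filter on normalized values and the removal of 2 arrays of 72 h were chosen after seeing the data. The procedure was tested on simulated data with known changes. Replicate numbers did not pair the arrays.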

Additional observations from a re-analysis of the deposited data

Results flagged for a closer look

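Single arrays lay far from the others of their group in 5 of the 48 groups of 4 or 5 isoproterenol arrays examined, where chance gives about 1 in 20. At 3 h replicate 1 read 5.67 on Sfrp1 1382878_at, with the next array at 4.54. At 24 h replicate 1 read 5.30 on Sfrp2 1396614_at, with the next at 4.34, and 5.49 on Frzb 1373615_at, with the next at 5.32. On Dkk3 1370328_at, replicate 5 of 1 h was low at 9.42, with the next at 9.73, and replicate 4 of 72 h was high at 10.29, with the next at 9.88.

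The effect of isoproterenol differed between successive times on 7 occasions in the limma test of the difference. Between 3 and 24 h it moved by -0.98 on Sfrp1 1371861_at, by -1.26 on Dkk3 1370328_at and by -1.95 on Dkk3 1397754_at (adjusted p = 0.0190, 0.0124 and 0.0493). Between 24 and 72 h it moved by 2.48 on Sfrp2 1390119_at, by 2.47 on Sfrp2 1396614_at, by 2.32 on Sfrp4 1368394_at and by 1.67 on Dkk3 1370328_at (adjusted p = 0.0369, 0.0201, 0.00804 and 0.00253).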

How the results depend on the processing

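Over the effects of single probe sets, 1928 values under alternative settings kept their side of the threshold, of which 114, none of them called, had the opposite sign, 59 lost a call, 13 gained one and 4 turned the sign of a called value. The 4 came from other probe sets of the same gene: Sfrp1 1382878_at at 3 h (-0.72) and between 3 and 24 h (1.36), Sfrp4 1388021_at at 72 h (-0.32) and Dkk3 1394655_at between 3 and 24 h (0.13). The cause was not tested.

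The count of 1 probe set at 3 h was 0 with median centring, without normalization, with array weights and with only the compared arrays in the fit. At 24 h it was 0 without normalization, and at 1 h it was 1 with array weights. Differences between 3 and 24 h numbered 1 without normalization and 1 with only the compared arrays, and differences between 24 and 72 h numbered 2 with only the compared arrays. Without 1 array in turn, the counts ran from 0 to 2 at 3 h, from 2 to 4 at 72 h, from 1 to 3 for 3 against 24 h, from 2 to 5 for 24 against 72 h, and from 3 to 6 for any time; they stayed at 0 at 1 h and at 1 at 24 h.

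Without normalization the median of all probe sets shifted by -0.23, -0.19, 0.47 and 0.36 in order of time. At 72 h it called 2351 probe sets higher and 29 lower, in place of 2275 and 2079. Counts over all probe sets at 1, 3, 24 and 72 h were 643, 2766, 3165 and 4354. They were 190 and 478 at 1 and 3 h without normalization, 1698, 5251 and 7208 at 1, 24 and 72 h with array weights, and 1328, 1350 and 2412 at 1, 3 and 72 h with only the compared arrays. The F test at any time called 7769, and 4849 without normalization. Differences between successive times numbered 141, 1649 and 514. They were 5 and 54 for the first and last without normalization, 493, 2915 and 1983 with array weights, 249, 1024 and 121 with only the compared arrays, and 1590 between 24 and 72 h without both arrays that stood apart, where 5 of the 12 probe sets passed. Among vehicle groups 24 were called, 13 with median centring, 7 without normalization, 6 with cyclic loess, 15 without a filter, 10 without the intensity trend and 1128 with array weights.

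Replicate numbers did not pair the arrays: 2 of 12 same-number pairs had a correlation of deviations above 0.1. With the number as a replicate block (consensus correlation -0.0221), counts were 0, 1, 1 and 3 at the 4 times, and differences numbered 2 between 3 and 24 h, since Dkk3 1397754_at no longer passed (adjusted p = 0.0544), and 4 between 24 and 72 h. No other call of a probe set changed with the block.

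Dim signals limit Sfrp2 1396614_at, Sfrp4 1388021_at, Sfrp1 1382878_at and 1383266_at and Dkk3 1394655_at, which reached the filter intensity on 3 to 9 of 30 arrays, so a missed test there does not show that levels were alike.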
